A study of Mus musculus with 9 samples.

Results

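The 9 imprinted fetal growth genes H19, Igf2, Meg3, Rian, Mirg, Dlk1, Peg3, Cdkn1c and Plagl1 were followed in mouse liver RNA. They form a named list, set with earlier results of these data known, and were matched by symbol to the Ensembl identifiers of the count tables, and each matched 1 of the 41388 genes listed. A count was recorded for 8 of the 9, and 7 passed the filter on low counts and were tested among 14741 genes. Dlk1 had no count in any library and Rian had 1, so the list describes genes detected in these livers for 7 of its 9 names.

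The libraries came from male C57BL/6J mice of 3 genotypes, and 3 pools per genotype gave 9 libraries from 27 mice. DKO mice carried liver-specific deletion of Mttp together with germline deletion of Fabp1, MttpLKO mice carried the liver deletion of Mttp alone, and Con mice were Mttp fl/fl without it. Mttp encodes the lipid transfer protein needed to assemble VLDL, and Fabp1 encodes the abundant fatty acid-binding protein of hepatocytes. All groups, controls included, had received the liver carcinogen diethylnitrosamine (DEN), 25 mg per kg intraperitoneally at 14 days of age, had eaten standard chow, and were sampled at 6 months. Each library held RNA from 3 mice of 1 genotype, so the spread between libraries is that between pools and single mice were not measured. The driver of the liver deletion and whether tumour tissue was included are not given in the labels, and neither Fabp1 loss alone nor untreated liver was analysed here. The question, from the series title, is how blocked VLDL secretion and Fabp1 loss bear on liver tumours. As background, several fetal growth genes are known to be switched on again in liver tumours.

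Libraries held 23268389 to 27918197 counts, with the DKO libraries the shallowest at 23268389 to 23429588. Mttp was at 3.24 to 9.43 CPM (counts per 1e6, as deposited) in the 6 DKO and MttpLKO libraries, against at least 70.9 CPM in each Con library. Fabp1 was at 53.5 to 74.8 CPM in DKO and at least 3258 CPM in each MttpLKO and Con library. Hepatocyte markers such as Alb and Ttr summed to 69925 to 92055 CPM in DKO, 92300 to 108126 CPM in MttpLKO and 90378 to 101705 CPM in Con, with all 8 of the list detected. MttpLKO pool 3 stood apart in its cell content: 6 of 6 B and plasma cell markers, 9 of 11 stellate cell and fibroblast markers and 7 of 7 proliferation markers were at their highest there. In whole liver, fewer cells of a type and less RNA per cell cannot be told apart.

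Imprinted genes are read mainly from 1 parental chromosome, under the control of DNA methylation marks that are set in the germ line and differ between the copies. Many of them act on fetal growth, and in rodents most are strongly expressed in fetal liver and shut down within weeks of birth. Paternally read Igf2, Dlk1, Peg3 and Plagl1 encode a growth factor, a transmembrane protein of the Notch ligand family and a pair of zinc finger proteins. Maternally read Cdkn1c encodes a cyclin-dependent kinase inhibitor, and H19, Meg3, Rian and Mirg are noncoding RNAs that carry small RNAs within them. H19 lies beside Igf2 and competes with it for enhancers. Meg3, Rian and Mirg follow one another on the same strand downstream of Dlk1 and are thought to be read from the Meg3 promoter as 1 long unit.

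The Meg3 promoter is shown because Meg3 had the most orderly pattern of the members and because Mirg is thought to be read from it as well. It is the 300-base window from 250 bases before to 50 bases after the RefSeq start, on the plus strand at chr12:109540746-109541045 of GRCm38.p6. Capitals mark matches to the motifs searched.
Meg3 promoter: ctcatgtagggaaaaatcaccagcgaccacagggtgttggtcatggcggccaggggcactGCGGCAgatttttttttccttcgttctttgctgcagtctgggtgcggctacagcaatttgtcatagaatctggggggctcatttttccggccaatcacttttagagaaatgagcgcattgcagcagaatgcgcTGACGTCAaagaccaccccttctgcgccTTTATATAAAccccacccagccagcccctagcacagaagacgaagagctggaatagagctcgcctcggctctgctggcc
Both strands were searched for TATAAA (the TATA box), TGACGTCA (the cyclic AMP response element, added after the sequences were seen), TGCCGC (the hexamer recognised by the imprint protector ZFP57 when methylated), CCATNTT (a core of YY1 sites) and GGGGCCCC (bound by PLAGL1). In the Meg3 window TATAAA matched from position -25 on the plus strand and from -29 on the minus strand, the matches overlapping, TGACGTCA matched from -57 and TGCCGC from -190 on the minus strand. Of 32851 promoter windows in the RefSeq table, 13.6% held TATAAA, 1.79% held TGACGTCA, 11.6% held TGCCGC, 16.1% held CCATNTT and 1.08% held GGGGCCCC. The Rian and Mirg windows (the RefSeq start of Mirg lies at 109734981, inside its listed span), and a further Meg3 window with its start site at 109545398, held none of these letters. Among other members, the Plagl1 window held TGCCGC, and the Igf2 window with its start site at 142661271 held TGCCGC and CCATNTT. The further Igf2 windows and the Dlk1 window held none, and the Peg3 window is described with that gene.

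The noncoding members also carry microRNAs, and 39 mature sequences from 21 microRNA genes lay within the spans of H19, Igf2, Meg3, Rian and Mirg on the same strand. Mirg held 26 of them, Rian 6, Meg3 3 and H19 and Igf2 2 each, and 13 lay wholly within counted exons. Those of H19 exons and Meg3 exons are shown because these RNAs were detected in each library, and miR-453 and miR-496a-5p of Mirg because, of the 39, they alone share a seed (bases 2 to 8, in capitals).
miR-675-5p in H19: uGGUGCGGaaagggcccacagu
miR-675-3p in H19: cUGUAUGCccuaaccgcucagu
miR-1906 in Meg3: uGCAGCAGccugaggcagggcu
miR-770-5p in Meg3: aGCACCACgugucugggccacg
miR-770-3p in Meg3: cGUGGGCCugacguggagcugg
miR-453 in Mirg: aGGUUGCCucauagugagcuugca
miR-496a-5p in Mirg: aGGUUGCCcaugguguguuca
Sequences are RefSeq's for GRCm38.p6. Counts of H19, Meg3 and Mirg are of the polyadenylated host RNA, and the amounts of mature microRNA were not measured.

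**Figure D1:**
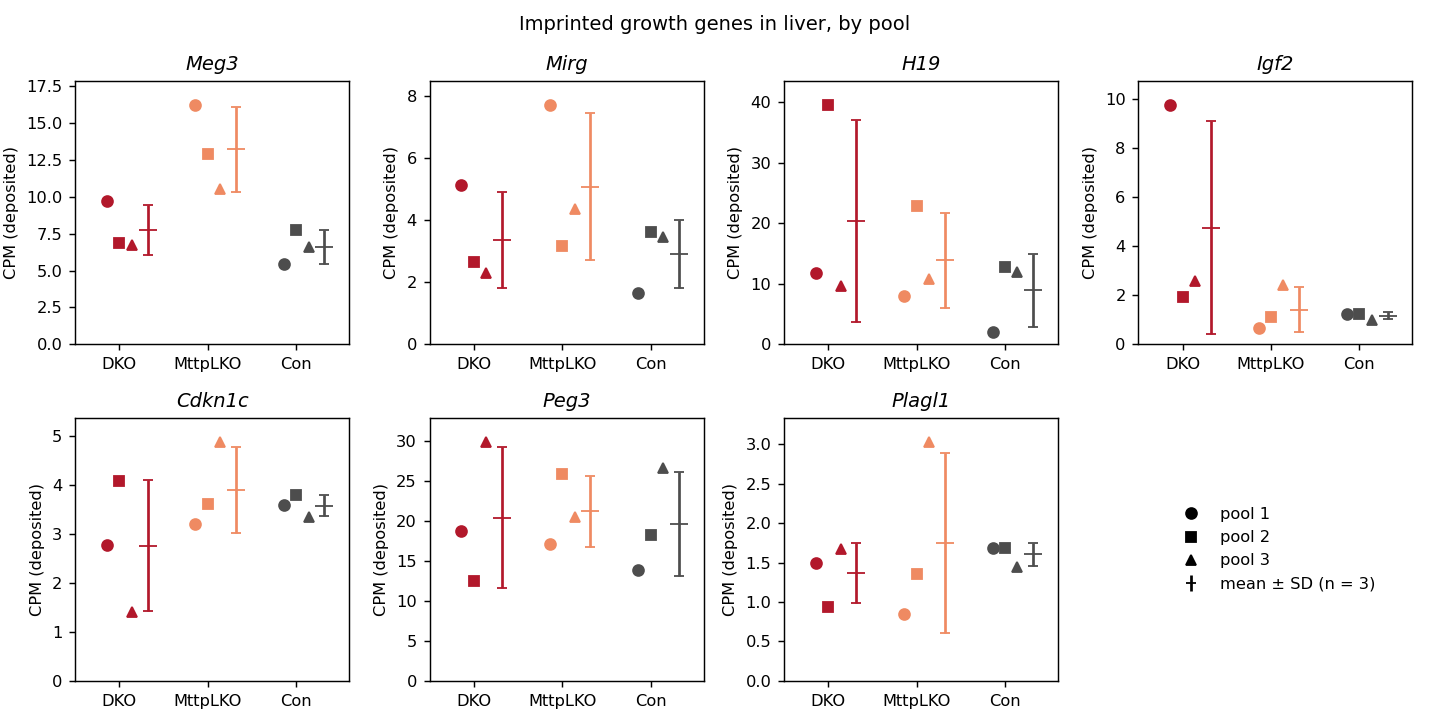
Deposited CPM of the 7 tested members in each pool of DKO, MttpLKO and Con liver, 1 panel per gene on its own linear axis from 0; marker shapes give the pool number, and the bar beside each group is the mean ± SD (n = 3). Meg3 in the 3 MttpLKO pools, at 10.5 to 16.2 CPM, lies above every DKO and Con pool, whereas H19 and Igf2 are each led by a single DKO pool.

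Meg3, a noncoding RNA known for growth restraint in cultured cells, had the most orderly pattern of the members. It lies on chromosome 12 from 109541001 to 109571726. Meg3 was at 9.71, 6.87 and 6.70 CPM in the DKO pools, 16.2, 12.9 and 10.5 CPM in the MttpLKO pools and 5.44, 7.74 and 6.57 CPM in the Con pools. Each MttpLKO pool was above each DKO and each Con pool, and the DKO and Con pools overlapped. Means were 13.2 ± 2.86 CPM in MttpLKO and 6.59 ± 1.15 CPM in Con (SD, n = 3 each), a 2.05-fold difference (log2 fold change 1.03 ± 0.21 SE) that did not pass the test (edgeR quasi-likelihood adjusted p = 0.0889; unadjusted p = 0.000416). Without MttpLKO pool 3 the same test called it, at log2 1.19 and adjusted p = 0.0437, and without each of the other libraries in turn the adjusted p ran up to 0.346. DESeq2 called it on the same genes (adjusted p = 0.000948), as did edgeR without a low-count filter (adjusted p = 0.00575).

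Against MttpLKO, DKO livers had a lower mean of Meg3, at 7.76 ± 1.69 CPM in DKO and 13.2 ± 2.86 CPM in MttpLKO (SD, n = 3 each). The log2 fold change was -0.81 ± 0.21 SE and was not past the threshold (edgeR adjusted p = 0.197), while DESeq2 called it (adjusted p = 0.0295). DKO against Con gave log2 0.22 ± 0.21 SE (edgeR adjusted p = 0.753). The comparisons share the MttpLKO libraries, so the higher value against Con and the lower value of DKO rest on the same 3 pools. MttpLKO pool 1, with the most Meg3, had a stellate cell and fibroblast marker sum of 288 CPM, against 282.9 to 612 CPM over all libraries, and an endothelial marker sum of 202 CPM, the lowest of the 9. Over the whole stellate cell and fibroblast list, 11 of 11 markers had a higher mean in MttpLKO than in Con, and 10 of 11 a lower mean in DKO than in MttpLKO. Sums of this list were 282.9 to 402 CPM in DKO, 288 to 612 CPM in MttpLKO and 309 to 354 CPM in Con. MttpLKO pools 1, 2 and 3 were at 288, 362 and 612 CPM. In pool 3, the MttpLKO pool with the least Meg3, 9 of the 11 markers were at their highest of all libraries. None of the 11 was at 0. Over the endothelial list 2 of 8 markers had a higher mean in MttpLKO than in Con, and 2 of 8 a lower mean in DKO than in MttpLKO. Endothelial sums were 220 to 313 CPM in DKO, 202 to 294 CPM in MttpLKO and 286 to 326 CPM in Con, with no marker at 0. Kupffer cell and macrophage markers summed to 25.7 and 30.6 CPM in MttpLKO pools 1 and 2, the pools with most Meg3, against 47.6 to 115 CPM in the other 7 libraries. Of these markers 1 of 7 was higher on average in MttpLKO than in Con, 0 of 7 were lower in DKO than in MttpLKO, and none was at 0. Bile duct and progenitor markers summed to 80.4 to 98.2 CPM in DKO, 80.6 to 143 CPM in MttpLKO and 63.0 to 72.2 CPM in Con, with 6 of 7 higher on average in MttpLKO than in Con, 5 of 7 lower in DKO than in MttpLKO and none at 0. The part of these cell types in the Meg3 values was not tested.

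Mirg, the microRNA host at the far end of the unit (chromosome 12, 109729764 to 109749460), was at 5.13, 2.65 and 2.28 CPM in the DKO pools, 7.70, 3.15 and 4.36 CPM in the MttpLKO pools and 1.64, 3.61 and 3.43 CPM in the Con pools. The same pools led as for Meg3, pool 1 in DKO and in MttpLKO, but here the genotypes overlapped. MttpLKO pool 1 was the highest library of the 9 for both genes, and Con pool 1 the lowest for both. The log2 fold change of MttpLKO over Con was 0.84 ± 0.40 SE (edgeR adjusted p = 0.743), that of DKO over MttpLKO -0.65 ± 0.40 SE (edgeR adjusted p = 0.677) and that of DKO over Con 0.19 ± 0.41 SE (edgeR adjusted p = 0.909). Without MttpLKO pool 1 the first was 0.37 and the second -0.17, so both rested largely on that pool, and the third turned to -0.20 without DKO pool 1 and to -0.07 without Con pool 1. Across the 9 libraries log2 CPM of Meg3 and Mirg had a Pearson r of 0.81, as a description of libraries that share depth and scaling.

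Rian, the middle of the unit and host of many small nucleolar RNAs (chromosome 12, 109603940 to 109661716), had 0 counts in the 3 DKO pools, 1, 0 and 0 in the MttpLKO pools and 0 in the 3 Con pools. Its neighbours on both sides were well counted: Meg3 summed to 2143 counts over the 9 libraries and Mirg to 877. A count of 0 allows up to 0.107 to 0.129 CPM per library, counting error only. Of the exon bases counted for Rian, 3.32% overlap another listed feature, against 8.29% for Meg3 and 5.94% for Mirg. The 19 other features within the span of Rian had 0 counts in all. How reads that match several places or either strand were counted is not given, so a loss of Rian reads in the counting cannot be told apart from a lack of Rian RNA. The cluster read together is in effect Meg3 plus Mirg.

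Summed over Meg3, Rian and Mirg, the cluster was at 14.8, 9.52 and 8.98 CPM in the DKO pools, 24.0, 16.0 and 14.9 CPM in the MttpLKO pools and 7.08, 11.3 and 10.0 CPM in the Con pools. Each MttpLKO pool was above each Con pool and above each DKO pool, the last by a narrow margin (14.85 CPM in DKO pool 1 and 14.91 CPM in MttpLKO pool 3). The means were 11.1 ± 3.24 CPM in DKO, 18.3 ± 4.94 CPM in MttpLKO and 9.48 ± 2.18 CPM in Con (SD, n = 3 each), given as a description with no test. Mirg made up 25.4% to 34.6% of the cluster counts in DKO, 19.6% to 32.1% in MttpLKO and 23.2% to 34.3% in Con, so its share overlapped between genotypes.

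**Figure D2:**
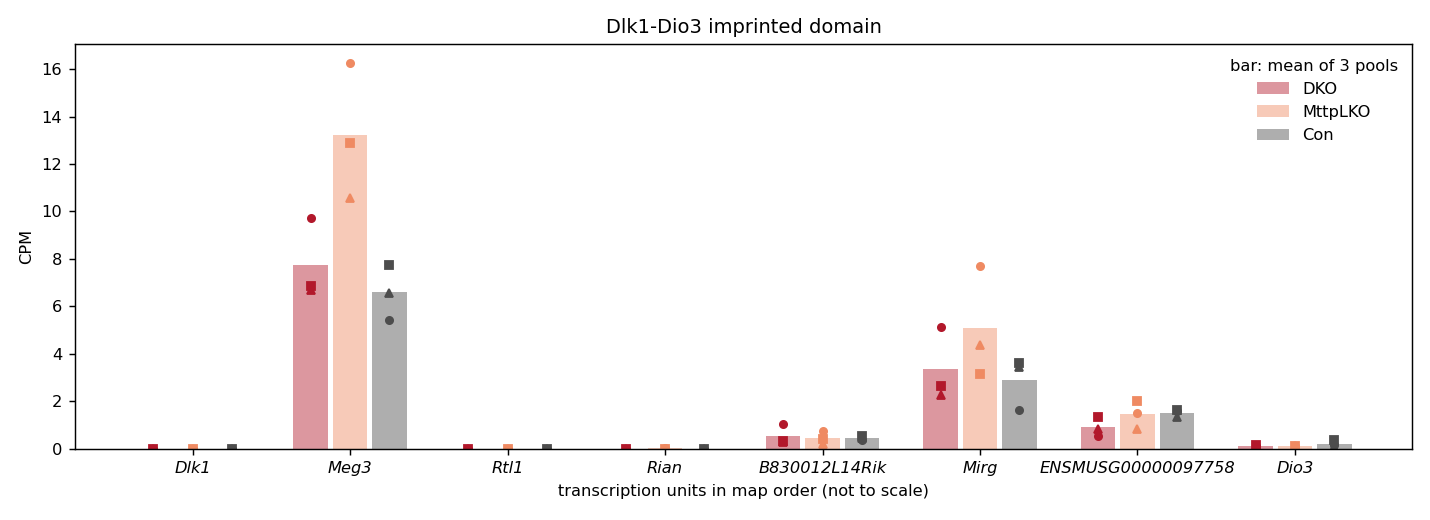
Dlk1-Dio3 domain in map order, with CPM on a linear axis from 0; bars are means of 3 pools for DKO, MttpLKO and Con, and points are single pools. Signal sits at Meg3 and Mirg, with Dlk1, Rtl1 and Rian at or next to 0, B830012L14Rik and Dio3 low, and the unnamed ENSMUSG00000097758 at 0.899 to 1.52 CPM on average.

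The protein-coding genes of the same domain had few counts or none. Dlk1, known in rodent liver as a marker of fetal hepatoblasts, had 0 counts in each of the 9 libraries, which over all of them together allows up to 0.013 CPM. Rtl1, a retrotransposon-derived gene read from the paternal copy, also had 0 counts throughout. Dio3, which encodes the thyroid hormone-inactivating deiodinase at the other end of the domain, had 34 counts over the 9 libraries and was too low to test. Between Rian and Mirg, the noncoding B830012L14Rik had 24, 8 and 7 counts in the DKO pools, 20, 11 and 5 in the MttpLKO pools and 9, 14 and 12 in the Con pools, overlapping throughout. The feature ENSMUSG00000097758, with no symbol in the annotation used and next to Dio3 on the other strand (110275384 to 110278068), had 301 counts, with means of 0.899 ± 0.390 CPM in DKO, 1.45 ± 0.588 CPM in MttpLKO and 1.52 ± 0.161 CPM in Con (SD, n = 3 each). Of the 96 features listed from Dlk1 to Dio3, 85 are at most 200 bases long, mostly microRNA and small nucleolar RNA genes, and these summed to 52 counts.

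H19, the maternal noncoding RNA and a known marker of fetal liver, was at 11.8, 39.5 and 9.58 CPM in the DKO pools, 7.92, 22.8 and 10.8 CPM in the MttpLKO pools and 1.96, 12.8 and 12.001 CPM in the Con pools. It lies on chromosome 7 from 142575529 to 142578143. The second pool of DKO and of MttpLKO stood well above its fellows, Con pool 1 well below, and the 3 genotypes overlapped. Means were 20.3 ± 16.7 CPM in DKO, 13.8 ± 7.88 CPM in MttpLKO and 8.91 ± 6.03 CPM in Con (SD, n = 3 each). The log2 fold change was 1.18 ± 0.67 SE for DKO over Con (edgeR adjusted p = 0.56), 0.66 ± 0.67 SE for MttpLKO over Con (edgeR adjusted p = 0.959) and 0.52 ± 0.66 SE for DKO over MttpLKO (edgeR adjusted p = 0.86). Without DKO pool 2 the first was 0.26 and the last turned to -0.40. Without MttpLKO pool 2 the value of MttpLKO over Con was 0.08, and without Con pool 1 it was 0.20.

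DKO pool 2, highest for H19, was also the highest library for the adipocyte marker sum, at 56.9 CPM against 1.43 to 12.5 CPM in the other libraries, though by 1 of the 3 adipocyte markers detected, and Lep was at 0. That sum was 2.36 to 56.9 CPM in DKO, 1.43 to 1.55 CPM in MttpLKO and 4.28 to 7.79 CPM in Con, and its part in the H19 level was not tested. MttpLKO pool 2, second for H19, held 1.43 CPM of the same markers.

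Igf2, the fetal growth factor that signals through the type 1 IGF receptor and the insulin receptor, was at 9.76, 1.92 and 2.58 CPM in the DKO pools, 0.663, 1.11 and 2.43 CPM in the MttpLKO pools and 1.24, 1.24 and 0.997 CPM in the Con pools. It lies on chromosome 7 from 142650766 to 142666816. DKO pool 1 alone was far above the rest, each DKO pool was above each Con pool, and DKO and MttpLKO overlapped. In counts, DKO pool 1 held 228, the other DKO pools 45 and 60, the MttpLKO pools 18, 31 and 64, and the Con pools 31, 33 and 27. The log2 fold change of DKO over Con was 1.99 ± 0.59 SE, a 3.97-fold difference that did not pass (edgeR adjusted p = 0.238; unadjusted p = 0.00617). Without DKO pool 1 it was 0.99 (edgeR adjusted p = 0.566), and DESeq2 with all libraries called it (adjusted p = 0.0265), as did edgeR without a low-count filter (adjusted p = 0.0308).

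Igf2 was 1.71 ± 0.58 SE higher on the log2 scale in DKO than in MttpLKO (edgeR adjusted p = 0.375) and 0.28 ± 0.61 SE higher in MttpLKO than in Con (edgeR adjusted p = 0.983), neither past the test. The value of DKO over MttpLKO was 0.71 without DKO pool 1, and that of MttpLKO over Con turned to -0.34 without MttpLKO pool 3. In DKO pool 1 the hepatocyte marker sum was 69925 CPM, the lowest of the 9 libraries, and 2 of the 8 markers were at their lowest there; its part in the Igf2 level was not tested. Sums of that list ran from 69925 to 92055 CPM in DKO, 92300 to 108126 CPM in MttpLKO and 90378 to 101705 CPM in Con. A listed antisense feature overlaps 1.71% of the Igf2 exon bases, and the antisense gene Igf2os had 9 counts over all libraries.

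H19 and Igf2 are neighbours under shared enhancers, yet their high pools differed. DKO pool 2 led for H19 and DKO pool 1 for Igf2. On the scale of RPKM (reads per kilobase and 1e6 reads, as deposited), H19 stood at 2.91, 49.6 and 8.97 times Igf2 in the DKO pools, 28.8, 49.5 and 10.7 times in the MttpLKO pools and 3.81, 24.9 and 29.0 times in the Con pools. H19 thus exceeded Igf2 per length in each library, by a ratio that differed widely between pools of 1 genotype.

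Cdkn1c encodes the cell cycle inhibitor p57 and lies on chromosome 7 from 143458350 to 143461050. It was at 2.78, 4.10 and 1.42 CPM in the DKO pools, 3.20, 3.62 and 4.89 CPM in the MttpLKO pools and 3.60, 3.80 and 3.36 CPM in the Con pools. The Con pools lay within 1.13-fold of each other, and the DKO pools spanned 2.89-fold around them. DKO pool 3 was the lowest library, and the genotypes overlapped in each comparison. The log2 fold change was -0.53 ± 0.31 SE for DKO over MttpLKO (edgeR adjusted p = 0.66), -0.39 ± 0.31 SE for DKO over Con (edgeR adjusted p = 0.703) and 0.14 ± 0.30 SE for MttpLKO over Con (edgeR adjusted p = 0.983).

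Plagl1, a zinc finger transcription factor known in mouse embryos to act on other imprinted genes, was at 1.50, 0.939 and 1.68 CPM in the DKO pools, 0.847, 1.36 and 3.03 CPM in the MttpLKO pools and 1.68, 1.69 and 1.44 CPM in the Con pools. Its listed span is chromosome 10, 13090691 to 13131694. MttpLKO held both the highest library, pool 3, and the lowest, pool 1. The log2 fold changes were -0.36 ± 0.41 SE for DKO over MttpLKO, 0.13 ± 0.41 SE for MttpLKO over Con and -0.23 ± 0.42 SE for DKO over Con (edgeR adjusted p = 0.84, 0.992 and 0.896). Without MttpLKO pool 3 the first turned to 0.26 and the second to -0.49. That pool was the highest library for Plagl1 and for Cdkn1c. It was also the one with 58.5 CPM of B and plasma cell markers, against 4.60 to 8.81 CPM in the other libraries, and 28.2 CPM of proliferation markers, against 6.59 to 14.9 CPM in the others. The B and plasma cell sum was 4.60 to 8.81 CPM in DKO, 5.23 to 58.5 CPM in MttpLKO and 5.43 to 7.78 CPM in Con, and the proliferation sum was 9.94 to 14.9 CPM in DKO, 6.59 to 28.2 CPM in MttpLKO and 7.72 to 9.02 CPM in Con. No marker of either list was at 0 over the libraries, and their part in the values of Plagl1 and Cdkn1c was not tested.

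Peg3, a large zinc finger gene known for effects on growth and maternal behaviour in mice, was the most counted member, with 4720 counts over the 9 libraries. It was at 18.8, 12.5 and 30.0 CPM in the DKO pools, 17.2, 25.9 and 20.6 CPM in the MttpLKO pools and 13.9, 18.3 and 26.7 CPM in the Con pools. Means of 20.4 ± 8.83 CPM in DKO, 21.2 ± 4.42 CPM in MttpLKO and 19.6 ± 6.49 CPM in Con (SD, n = 3 each) lay close together, and each genotype spanned much of the same range. Its log2 fold changes were -0.07 ± 0.31 SE for DKO over MttpLKO, 0.14 ± 0.31 SE for MttpLKO over Con and 0.07 ± 0.32 SE for DKO over Con (edgeR adjusted p = 0.968, 0.983 and 0.963). Peg3 lies on chromosome 7 from 6703892 to 6730421. Its RefSeq promoter window held GGGGCCCC and TGACGTCA.

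**Figure D3:**
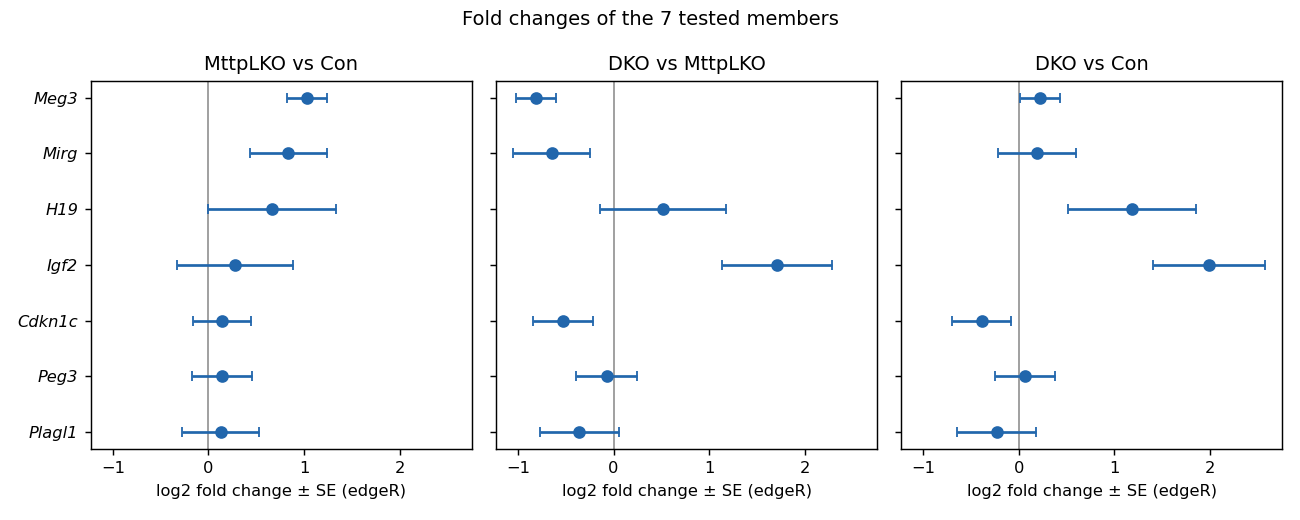
Log2 fold change with its SE for the 7 tested members in MttpLKO over Con, DKO over MttpLKO and DKO over Con, from 1 edgeR fit of all 9 libraries; the grey line is no difference. Meg3 and Mirg lie to the right for MttpLKO over Con and to the left for DKO over MttpLKO, Igf2 lies furthest right in both DKO comparisons, and none of the 21 values passed the adjusted threshold.

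Over the 7 members tested, none passed an edgeR adjusted p of 0.05 in any of the 3 comparisons. The shares called of all genes were 0.346% for MttpLKO over Con, 0.4% for DKO over MttpLKO and 0.332% for DKO over Con, and 0 of 7 members is near that background. At an unadjusted p under 0.05 there was 1 member for MttpLKO over Con (Meg3), 2 for DKO over MttpLKO (Meg3 and Igf2) and 1 for DKO over Con (Igf2), against 6.97%, 9.1% and 11.2% of all genes. DESeq2 called Meg3, Meg3 and Igf2 in the same order of comparisons, with 1.12%, 1.45% and 1.73% of all genes called. EdgeR without a low-count filter called Meg3 for MttpLKO over Con, no member for DKO over MttpLKO and Igf2 for DKO over Con, with 0.671%, 0.706% and 0.789% of genes called. Limma-voom called no member. Pools did not overlap, in either direction, for 1 member in each comparison. Meg3 was higher in MttpLKO than in Con (6.18% of all genes) and lower in DKO than in MttpLKO (4.38%). For DKO over Con it was Igf2, higher in DKO (9.55%). Each share covers the named direction only. The share over both directions, which would match the member count, was not computed.

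For MttpLKO over Con the 7 log2 fold changes were above 0, with a median of 0.28 against 0.01 over all genes tested, and 4 of the 7 were at most 0.28. Plagl1, Igf2, Peg3 and Cdkn1c each turned below 0 without at least 1 library. DKO over MttpLKO had 2 above and 5 below 0, with a median of -0.36 against -0.02 over all genes. DKO over Con had 5 above and 2 below 0, with a median of 0.19 against 0.00 over all genes (-0.0019).

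The members differed in how far pools of 1 genotype spread. The SD of log2 CPM between pools of a genotype was 1.16 for H19, larger than in 99.5% of the genes tested, and 0.84 for Igf2, larger than in 97.8%. Mirg had 0.60 (91.8%), Plagl1 0.55 (89.4%), Peg3 0.49 (85.7%) and Cdkn1c 0.44 (81.5%). Meg3 had 0.28 (61.3%), next to the median of 0.23 over all genes tested. These ranks are descriptions. H19 spanned 4.12-fold between the DKO pools, 2.88-fold between the MttpLKO pools and 6.52-fold between the Con pools, and Meg3 1.45-fold, 1.54-fold and 1.42-fold.

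**Figure D4:**
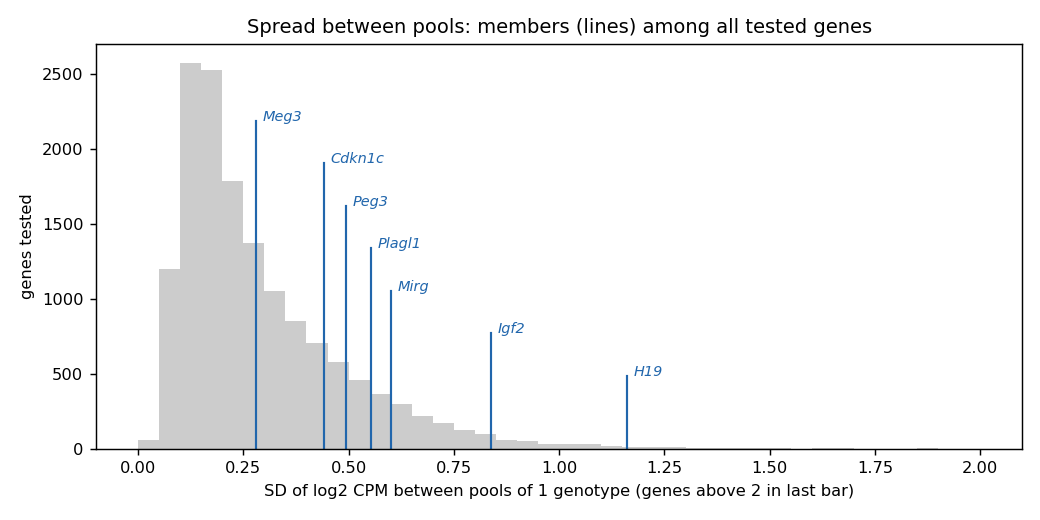
Histogram of the SD of log2 CPM between pools of 1 genotype for the 14741 tested genes (grey; last bar holds genes above 2), with the 7 tested members as vertical lines of arbitrary height. Meg3 sits near the bulk at 0.28, and H19 and Igf2 sit in the right tail at 1.16 and 0.84.

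Levels per length put H19 first, at 6.05 ± 4.59 RPKM (SD over the 9 libraries), followed by Cdkn1c at 1.77 ± 0.495 RPKM and Peg3 at 1.53 ± 0.447 RPKM. Mirg at 0.517 ± 0.248 RPKM, Meg3 at 0.508 ± 0.196 RPKM and Igf2 at 0.426 ± 0.493 RPKM came next, then Plagl1 at 0.216 ± 0.0864 RPKM, with Rian and Dlk1 last. H19 was above Cdkn1c in 8 of 9 libraries and Peg3 above Mirg in 9 of 9. Cdkn1c and Peg3, Mirg and Meg3, Meg3 and Igf2, and Igf2 and Plagl1 were neighbours whose order changed between libraries, holding in 6, 5, 7 and 5 of 9.

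Other imprinted genes gave the setting. Of 55 further genes listed as imprinted, 51 were matched and 35 tested, and edgeR called none in any comparison. Counts do not tell the parental copies apart, so whether these genes are imprinted in liver was not tested. At an unadjusted p under 0.05 there were 5 of the 35 for MttpLKO over Con, 7 for DKO over MttpLKO and 3 for DKO over Con. In that order 6.97%, 9.1% and 11.2% of all genes had such a p. Median log2 fold changes of the 35 were 0.01, -0.06 and 0.01. Peg10 and its neighbour Sgce, paternally read genes that share a promoter region on chromosome 6 (4674350 to 4760517), lie side by side; Peg10 had the smallest p of these genes for MttpLKO over Con and Sgce for DKO over MttpLKO. Peg10, a retrotransposon-derived gene known from placenta and liver tumours, was at 1.67, 1.07 and 1.72 CPM in the DKO pools, 6.52, 8.27 and 1.48 CPM in the MttpLKO pools and 1.16, 1.09 and 1.07 CPM in the Con pools. Sgce, which encodes epsilon-sarcoglycan, was at 4.96, 4.82 and 3.57 CPM in the DKO pools, 11.3, 11.2 and 6.18 CPM in the MttpLKO pools and 6.08, 4.96 and 5.32 CPM in the Con pools.

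MttpLKO pools 1 and 2 were the high ones for both Peg10 and Sgce, as for Meg3, and MttpLKO pool 3 lay within the range of the DKO pools for Peg10. Peg10 differed by log2 2.33 ± 0.52 SE for MttpLKO over Con (edgeR adjusted p = 0.14) and -1.91 ± 0.51 SE for DKO over MttpLKO (edgeR adjusted p = 0.222). For Sgce the values were 0.85 ± 0.24 SE (edgeR adjusted p = 0.333) and -1.15 ± 0.25 SE (edgeR adjusted p = 0.109). With all 9 libraries edgeR called none of these, while DESeq2 called Peg10 in both comparisons (adjusted p = 0.000653 and 0.0125) and Sgce for DKO over MttpLKO (adjusted p = 0.00282). Without MttpLKO pool 3 edgeR called Peg10 (log2 2.78, adjusted p = 0.000838) and Sgce (log2 1.09, adjusted p = 0.0358) for MttpLKO over Con. The same fit called both for DKO over MttpLKO (log2 -2.37 and -1.40, adjusted p = 0.00182 and 0.00684). With each other library left out, edgeR adjusted p ran up to 0.484 for Peg10 and 0.892 for Sgce in MttpLKO over Con. For DKO over MttpLKO it ran up to 0.631 and 0.434. Limma-voom called neither gene in these comparisons (adjusted p for Peg10 0.555 and 0.518). In the chromosome 7 domains, Osbpl5, an oxysterol-binding protein gene, was at 5.66 ± 1.27 CPM in MttpLKO and 11.1 ± 2.46 CPM in Con (SD, n = 3 each; edgeR adjusted p = 0.284), and Phlda2, a brake on placental growth in mice, at 0.885 ± 0.326 CPM in DKO and 0.382 ± 0.0961 CPM in MttpLKO (SD, n = 3 each; edgeR adjusted p = 0.488).

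**Figure D5:**
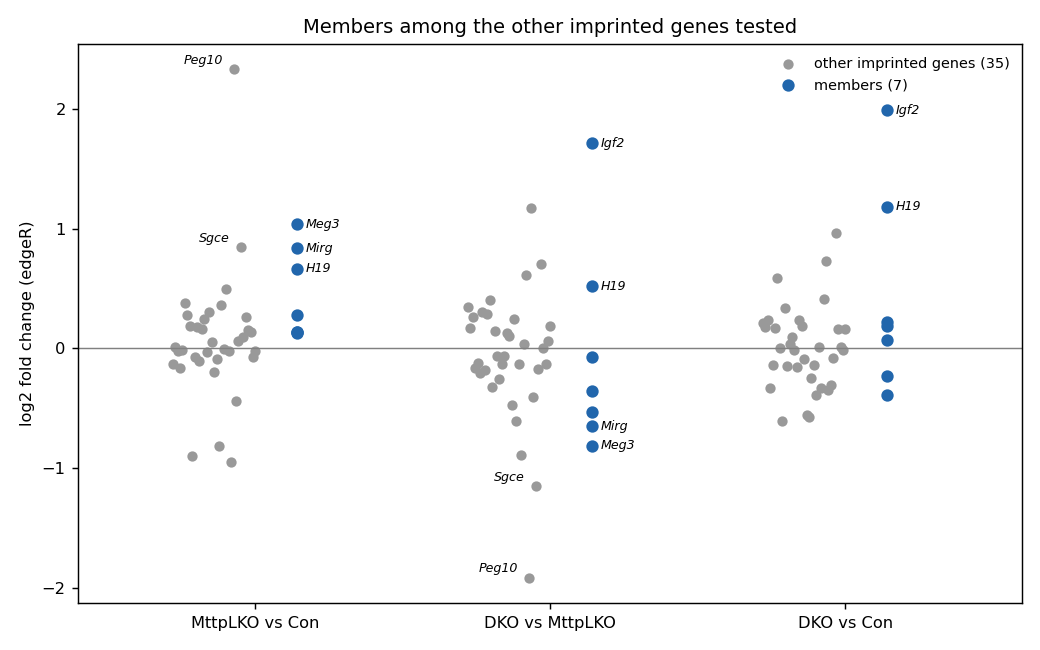
Log2 fold changes of the 7 tested members (blue) and 35 other tested imprinted genes (grey, spread sideways for visibility) in MttpLKO over Con, DKO over MttpLKO and DKO over Con. The other imprinted genes centre on 0, with Peg10 at 2.33 and -1.91 in the first and second comparison, and Igf2 is the highest member in both DKO comparisons.

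Genes of the IGF axis, the ligands, receptors and binding proteins around Igf2, were not called. Of 22 listed genes 20 were tested and edgeR called none in any comparison. At an unadjusted p under 0.05 there were 2 for MttpLKO over Con, 3 for DKO over MttpLKO and 1 for DKO over Con. Over all genes the shares at such a p were 6.97%, 9.1% and 11.2% in that order. Igf1, the main postnatal IGF from hepatocytes, was at 657 to 699 CPM in DKO, 643 to 822 CPM in MttpLKO and 613 to 706 CPM in Con. Igf2r, which clears IGF2 and is itself imprinted in mice, was at 47.4 to 54.0 CPM in DKO, 48.7 to 57.4 CPM in MttpLKO and 45.7 to 48.1 CPM in Con. Igf2bp2, which encodes a relative that also binds Igf2 mRNA, was at 0.503 ± 0.0746 CPM in MttpLKO and 0.952 ± 0.0292 CPM in Con (SD, n = 3 each; edgeR adjusted p = 0.664). Igf1r, the receptor that IGF2 shares with IGF1, was at 1.58 ± 0.417 CPM in MttpLKO and 2.43 ± 0.184 CPM in Con (SD, n = 3 each; edgeR adjusted p = 0.704). Igf2bp3, an oncofetal protein gene that binds Igf2 mRNA, was at 0.899 ± 0.0867 CPM in DKO and 0.309 ± 0.121 CPM in MttpLKO (SD, n = 3 each; edgeR adjusted p = 0.278). Igfbp5, an IGF-binding protein gene, was at 36.9 ± 9.95 CPM in DKO and 22.9 ± 6.32 CPM in Con (SD, n = 3 each; edgeR adjusted p = 0.291).

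Regulators of imprints and of fetal genes were likewise not called. Of 18 listed 15 were tested, with none past the adjusted threshold. Before adjustment, 1, 0 and 3 had a p below 0.05 for MttpLKO over Con, DKO over MttpLKO and DKO over Con. Among the 14741 genes tested, 6.97%, 9.1% and 11.2% reached that unadjusted level, and 0.346%, 0.4% and 0.332% passed the adjusted threshold. Zhx2, a known repressor of H19 and Afp in adult mouse liver, was at 23.8 ± 2.30 CPM in DKO and 17.2 ± 2.83 CPM in Con (SD, n = 3 each; edgeR adjusted p = 0.313). Ctcfl, a relative of the insulator protein gene Ctcf, was at 13.2 ± 2.71 CPM in MttpLKO and 7.48 ± 2.12 CPM in Con (SD, n = 3 each; edgeR adjusted p = 0.533). In DKO livers Ctcfl was at 13.8 ± 5.23 CPM (SD, n = 3), log2 0.88 over Con (edgeR adjusted p = 0.306). Zfp445, which protects imprints, was at 30.9 ± 11.7 CPM in DKO and 45.6 ± 7.12 CPM in Con (SD, n = 3 each; edgeR adjusted p = 0.416).

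Among 12 other fetal liver genes, Peg10 and Igf2bp3 among them, 10 were tested, and 1 was called in 1 comparison, DKO over Con. Gpc3, an oncofetal glypican gene, was at 12.7, 10.8 and 8.90 CPM in the DKO pools, 4.31, 6.70 and 12.8 CPM in the MttpLKO pools and 2.16, 3.31 and 3.03 CPM in the Con pools. Each DKO pool was above each Con pool for Gpc3, as for 9.55% of all genes tested. Gpc3 rose in DKO over Con by log2 1.91 ± 0.33 SE (edgeR adjusted p = 0.0423), in a comparison that called 0.332% of all genes. The call was lost in 10 of 17 alternatives: with upper-quartile scaling, limma-voom and a replicate block (adjusted p = 0.0526, 0.0702 and 0.0551), and without any 1 of the Con or DKO pools or MttpLKO pool 2 (adjusted p up to 0.196, log2 1.78 to 2.04). For MttpLKO over Con Gpc3 was not called by edgeR (adjusted p = 0.135) but was in 3 of 17 alternatives. These were edgeR without MttpLKO pool 1 (adjusted p = 0.031), edgeR without a low-count filter (adjusted p = 0.00316) and DESeq2 (adjusted p = 0.00118). In the other alternatives it was not called, with an adjusted p of 0.299 for limma-voom and up to 0.421 for edgeR. Bile duct and progenitor markers summed to 80.4 to 98.2 CPM in DKO and 63.0 to 72.2 CPM in Con, with 5 of 7 higher on average in DKO and none at 0, and Epcam, Sox9 and Spp1 stand in both that list and the fetal liver list. Proliferation markers summed to 9.94 to 14.9 CPM in DKO and 7.72 to 9.02 CPM in Con, with 6 of 7 higher on average in DKO. The part of these markers in the Gpc3 difference was not tested. Afp, the alpha-fetoprotein gene, was at 5.48 ± 2.08 CPM in DKO, 7.47 ± 5.43 CPM in MttpLKO and 2.33 ± 0.755 CPM in Con (SD, n = 3 each). Its edgeR adjusted p was 0.377 for DKO over Con and 0.333 for MttpLKO over Con. Without MttpLKO pool 3 the log2 fold change of Afp for MttpLKO over Con was 0.97, against 1.68 with all libraries. For MttpLKO over Con 9 of the 10 were above 0 with a median of 0.76, and 7 had an unadjusted p under 0.05, against 6.97% of all genes. For DKO over MttpLKO 3 were above and 7 below 0 with a median of -0.40, and 4 had an unadjusted p under 0.05, against 9.1% of all genes. For DKO over Con 9 of 10 were above 0 with a median of 0.39, and 3 had an unadjusted p under 0.05, against 11.2% of all genes. This list was chosen with earlier results of these data known, so its counts beside all genes are descriptions and not a test of the list. Afp, Gpc3, Epcam, Cd24a, Sox4, Sox9 and Spp1 were each at their highest of the 9 libraries in MttpLKO pool 3. Of the tested genes, Peg10, Igf2bp3 and Aldh1a3 were not. That pool stood apart in its cell content and was the lowest MttpLKO library for Meg3. Its part in the values of this list was not tested.

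The genes whose log2 CPM over the 9 libraries was closest to the mean of Meg3, Rian and Mirg were Ank2 (Pearson r 0.958), Tsr2 (0.952), Dennd5b (0.938), Parp11 (0.919) and Dcaf7 (0.913). Closest to H19 were Mrpl35 (0.926), Igf1os (0.898), Ech1 (0.897), Stub1 (0.889) and Ddx18 (0.885). These values are the highest among 14741 genes over 9 libraries and describe only these libraries.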

How the data were processed

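Reads were counted per gene by the authors from oligo(dT)-selected liver RNA, and whole-number counts, not normalized, were deposited for 41388 genes per library, per the file headers. The deposited CPM values are counts per 1e6 counted reads over all listed genes and the deposited RPKM values are CPM per kilobase of listed length, per the file headers; both are printed as levels and were not tested. The submitters' processing notes list the tools STAR 2.0.4b, Subread and featureCounts 1.4.5 without saying what each did. Build, strand setting and treatment of multimapping reads: not given in the sources used here. Antisense and overlapping reads are therefore uncertain.

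Identifiers were matched to GENCODE M21 symbols (97.26%). Of the 9 members, 7 had the same listed start in GENCODE M21, and 93.8% of 874 microRNA hairpins had the same start and end in RefSeq GRCm38.p6, from which sequences were taken. Promoter windows were found for Peg3, Igf2, Plagl1, Dlk1, Meg3, Rian and Mirg and not for H19 and Cdkn1c.

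Counts were tested with edgeR 4.0.16 (R 4.3.3): filterByExpr with a minimum count of 10, TMM scaling, a quasi-likelihood F test in 1 fit of 3 genotype means over 9 libraries, and Benjamini-Hochberg adjustment over 14741 genes at 0.05. The SE was the size of the log2 fold change over the square root of F. Log2 CPM used a prior count of 2. The scripts were tested on simulated data. Replicate libraries differed by more than counting error (chi-square over its degrees of freedom at least 21.4). That the pools are separate mice rests on the labels. The members and lists were chosen with earlier results of these data known. Igf1, Igf2r, Epcam, Sox4, Spp1 and Aldh1a3 were named after their values were seen, as was the motif TGACGTCA. So were the untested Igf2os, Dio3, Rtl1, B830012L14Rik and ENSMUSG00000097758. The other named genes are the members, Mttp and Fabp1, and the 5 genes most like the cluster and H19. To these come genes of the lists that were called or had 1 of the 3 smallest p per list and comparison. Not every list gene that this rule allows is named, and which were named was chosen with their values known. The alternatives for list genes were added after seeing the data. Alternatives were RLE and upper-quartile scaling, 2 other filters, DESeq2 1.42.0, limma-voom (limma 3.58.1), the 6 libraries of a comparison, a replicate block, and leaving out each library.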

Additional observations from a re-analysis of the deposited data

How the results depend on the processing

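The count of members called, 0 in each comparison, was 1 with DESeq2 in each of the 3 comparisons. Without a low-count filter it was 1 for MttpLKO over Con (Meg3) and 1 for DKO over Con (Igf2). With each library left out in turn it ran from 0 to 1 for MttpLKO over Con and was 0 for the others. For DESeq2 and for no filter the cause was not tested. Of 21 log2 fold changes, 12 kept their sign in all 17 alternatives. With limma-voom Plagl1 turned to -0.041 for MttpLKO over Con and Peg3 to -0.0036 for DKO over Con. With libraries left out in turn, the values for MttpLKO over Con ran from -0.34 to 0.60 for Igf2, from -0.048 to 0.40 for Peg3, from -0.029 to 0.24 for Cdkn1c and from -0.49 to 0.44 for Plagl1. For DKO over MttpLKO they ran from -0.40 to 1.12 for H19, from -0.50 to 0.19 for Peg3 and from -0.66 to 0.26 for Plagl1. For DKO over Con they ran from -0.20 to 0.38 for Mirg and from -0.38 to 0.33 for Peg3. DESeq2 and edgeR without a low-count filter also called Peg10, Gpc3, Afp and Osbpl5 for MttpLKO over Con and Peg10 and Sgce for DKO over MttpLKO.

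The labels number the pools 1 to 3 in each genotype but do not say that a number is shared between genotypes. Same-numbered libraries had correlations of their deviations from -0.244 to 0.0721, and a library was closest to its own number in 4 of 18 cases, so the numbers were not used as pairs. With a replicate block 0 members were called in each comparison, and the genes called over the whole table were 35, 43 and 40, against 51, 59 and 49 without it, for MttpLKO over Con, DKO over MttpLKO and DKO over Con. In the same order DESeq2 called 165, 214 and 255 genes and edgeR without a low-count filter 171, 180 and 201. The 6 libraries of each comparison alone gave 50, 34 and 78. Leaving out a library gave 14 to 54, 22 to 73 and 15 to 100.

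The counts behind Plagl1 (363 over 9 libraries), Igf2 (537) and Cdkn1c (793) were the lowest of the members tested; how much of their spread is counting error was not tested. With 3 pools per genotype, a miss of the threshold does not show that levels were equal.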
